A study of Mus musculus with 4 samples.

Results

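The genes described here are 10 C-type lectin receptors of mouse phagocytes, of 31053 genes counted: Cd209a, Cd209b, Cd209d, Cd209f and Cd209g, the 3 Clec4 genes Clec4b1, Clec4d and Clec4e, and the pair Clec10a and Mgl2. They were chosen by name, and their level was read in each kind of phagocyte of the mouse aorta. The cells came from aortic arches with their branches and perivascular tissue, of male mice that were 3 months old at the start, from a cross of a floxed C57BL/6 line with a B6;129 line carrying Cdh5-cre. All mice carried a floxed Nfe2l2 gene, which encodes the transcription factor Nrf2. The groups labelled Nrf2Cdh5tKO also carried Cre recombinase under the Cdh5 promoter, which acts in endothelium and in a proportion of hematopoietic cells, and the groups labelled Nrf2flox/flox did not. Atherosclerotic mice had received an injection of an adeno-associated virus and a high-fat diet for 21 weeks. Normocholesterolemic mice had received saline and a standard diet. Each of the 4 groups was 1 single-cell RNA library, from tissue pooled over 4 mice (both normocholesterolemic groups) or 3 mice (both atherosclerotic groups), so no difference between groups could be tested.

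C-type lectin receptors are surface proteins whose lectin-like domain binds, in many of them with the help of calcium, sugars or lipids on microbes and on the body's own cells. The Cd209 genes are the mouse relatives of human DC-SIGN, a receptor for mannose- and fucose-bearing sugars on dendritic cells and macrophages. Clec10a and Mgl2 encode the macrophage galactose-type lectins, which take up glycoproteins with terminal galactose or N-acetylgalactosamine. Clec4e encodes Mincle and Clec4d encodes MCL, receptors for glycolipids such as the cord factor of mycobacteria, which signal through the FcRγ chain, the kinase Syk and the adaptor Card9. Clec4b1 encodes DCAR, which also pairs with the FcRγ chain.

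The members lie in 3 clusters of the genome. In GRCm38 with the GENCODE M21 annotation, the 5 Cd209 genes span 394.31 kb of chromosome 8. Cd209f (ENSMUSG00000051906, chr8:4102787-4105835) lies on the minus strand, and its neighbour Cd209g (ENSMUSG00000079168, chr8:4134098-4137707) on the plus strand. Clec4b1 (ENSMUSG00000030147, chr6:123049962-123071555, plus strand), Clec4d (ENSMUSG00000030144, chr6:123262111-123275265, plus strand) and Clec4e (ENSMUSG00000030142, chr6:123281789-123289870, minus strand) span 239.908 kb of chromosome 6. Mgl2 (ENSMUSG00000040950, chr11:70130329-70137550) and Clec10a (ENSMUSG00000000318, chr11:70156197-70170834), both on the plus strand, span 40.505 kb of chromosome 11. Because reads of these 3′ libraries could be shared by such relatives, the last 500 bases of their protein-coding transcripts were compared in windows of 90 bases. Clec10a shared 7.66% of its windows with Mgl2, and none of the windows of the other 9 members occurred in another gene of the families.

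The starts of the genes were read because some members of a cluster were found in the same cells. RefSeq promoters (GRCm38.p6, 250 bases before to 50 after the start) matched 9 of the 10 members by symbol, all but Clec10a. Cd209f and Cd209g shared an identical run of 180 bases around their starts, and the next longest run shared by any members was 17 bases. The stretches below end before the annotated untranslated regions and lie at chr8:4105836-4105938 on the minus strand and chr8:4134548-4134651 on the plus strand. The second stretch lies upstream of the protein-coding Cd209g transcript, inside a longer retained-intron transcript. Capitals mark the shared run.
Cd209f: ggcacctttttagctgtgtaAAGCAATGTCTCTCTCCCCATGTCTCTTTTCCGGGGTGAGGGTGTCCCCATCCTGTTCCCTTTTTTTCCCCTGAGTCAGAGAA
Cd209g: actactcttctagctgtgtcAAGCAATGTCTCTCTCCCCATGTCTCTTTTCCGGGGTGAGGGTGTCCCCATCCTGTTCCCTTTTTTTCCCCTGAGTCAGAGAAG
The shared run holds TGAGTCA, the letters of an AP-1 site, which was found in 2 of the 9 member promoters and, on either strand, in 5.19% of 32544 promoters.

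In the Clec4 genes the letters AGAGGAAA, which contain the GGAA core of ETS family sites, were found in 3 of 3 promoters, each time on both strands, and in none of the other 6 member promoters. Over all promoters 3.32% held them on either strand. The sites on the printed strand lie at chr6:123049911-123049940 (plus strand), chr6:123262134-123262156 (plus strand, in the 5′ untranslated region) and chr6:123289910-123289939 (minus strand), with the motif in capitals.
Clec4b1: cttaaatcattAGAGGAAAgtgcataatgt
Clec4d: tctagtacattAGAGGAAActct
Clec4e: ccttgtgcaagAGAGGAAAttctgacttaa
The motifs were chosen after the sequences had been seen, and a match of letters is a description of the sequence and not a binding site. TATAAA was found in 4 of the 9 promoters and in 13.6% of all promoters.

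The libraries held 8512, 3460, 1160 and 2467 cell barcodes, always in the order normocholesterolemic Nrf2flox/flox, normocholesterolemic Nrf2Cdh5tKO, atherosclerotic Nrf2flox/flox and atherosclerotic Nrf2Cdh5tKO, an order kept for every set of 4 values. The study's limits of 200 to 6000 genes per cell and 15% mitochondrial counts left 14148 of 15599 cells. Expression is counted in unique molecular identifiers (UMIs), random tags by which copies of the same captured mRNA are recognised, and the median per cell was 9200.5 to 14152.5 UMIs by library. Pairs of libraries shared 1 to 7 barcodes. Nfe2l2 itself was at 408, 465, 349 and 358 UMIs per 1000000 (CPM) in the Lyve1+ macrophages, and was not lower under the Nrf2Cdh5tKO label at either diet. Where its reads lie relative to the excised exon was not examined here. Whether the exon was excised was therefore not read from the summed counts, and the genotypes are given as labelled. By quantitative PCR the paper found less of that exon in bone marrow-derived macrophages and Kupffer cells of healthy Nrf2Cdh5tKO mice. The Nrf2 targets Nqo1 and Gclm were also lower there.

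Phagocytes were sorted by marker genes that include none of the 10 members. Of 1949 phagocytes, 1089 were Lyve1+ macrophages (500, 292, 66 and 231 cells), the perivascular resident kind. A further 226 were cavity-like macrophages (164, 15, 14 and 33), with genes of serous cavity macrophages, and 179 were intima-type macrophages (85, 23, 32 and 39). There were 145 monocytes (74, 19, 28 and 24), 94 dendritic cells (55, 11, 11 and 17) and 216 other phagocytes that passed no single gate. Defining genes were high in their own gate. Lyve1 was at 949 CPM in Lyve1+ macrophages and at most 5 CPM in the other 4 kinds, Lyz1 at 6883 CPM in cavity-like macrophages, Mmp12 at 1098 CPM in intima-type macrophages, Chil3 at 1432 CPM in monocytes and Ccr7 at 265 CPM in dendritic cells.

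Between 86.2% and 91.8% of the UMIs of 8 members lay in phagocytes. The exceptions were Clec4d (52.4%) and Clec4e (63.2%), which were also high in the 121 neutrophils. Each member had a kind of phagocyte in which it was highest: Lyve1+ macrophages for Cd209b, Cd209d, Cd209f, Cd209g, Clec10a and Mgl2, cavity-like macrophages for Clec4b1, monocytes for Clec4d and Clec4e, and dendritic cells for Cd209a. Kinds were compared with edgeR's quasi-likelihood test on UMIs summed per kind and library, with the library as a block, because all kinds of a library came from the same mice. Adjusted p-values are Benjamini-Hochberg values over all 5830 genes tested and two-sided. Each library is 1 pool of mice. With the block, the p-values measure the spread of differences between kinds over these 4 pools, which differ in diet and genotype.

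**Figure D1:**
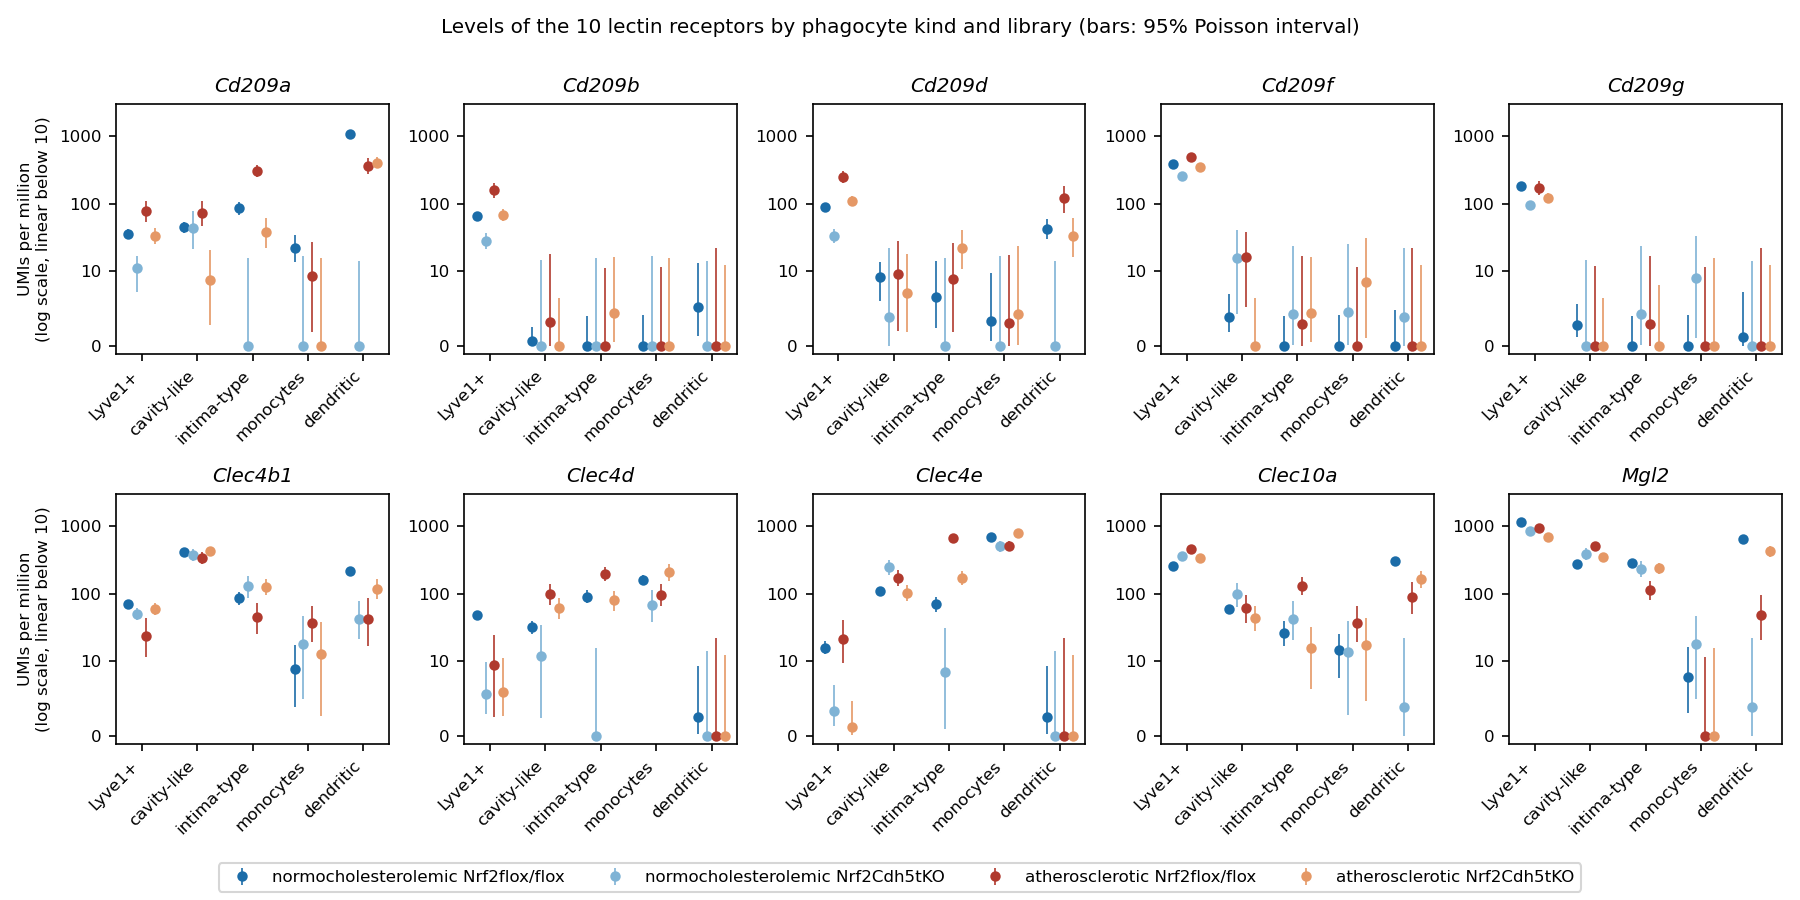
Level of each of the 10 receptors in UMIs per 1000000 (log axis, linear below 10) in the 5 kinds of phagocyte, with 1 point for each of the 4 libraries and exact 95% Poisson intervals as bars. Cd209f in Lyve1+ macrophages lies between 258 and 498 in every library and at most at 16.1 in the other kinds, while Cd209a in dendritic cells runs from 0 to 1072.

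Among the phagocytes, Cd209f was found almost wholly in Lyve1+ macrophages. Its level there was 393, 258, 498 and 350 CPM (375 ± 99.6, mean ± SD, n = 4 libraries), against at most 16.1 CPM in any library of the other 4 kinds. The groups did not overlap, and Lyve1+ macrophages held 96.8% of its phagocyte UMIs. Against cavity-like macrophages, the next kind, Cd209f was higher by a log2 fold of 5.81 ± 0.47 (SE; edgeR, adjusted p = 1.46e-08), in 4 of 4 libraries.

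Cd209g, the neighbour of Cd209f, was at 184, 96.1, 171 and 124 CPM in Lyve1+ macrophages (144 ± 40.9). No library of another kind was above 9.09 CPM. Against cavity-like macrophages, in which 8 UMIs were counted, its log2 fold was 6.20 ± 0.51 (edgeR, adjusted p = 1.46e-08).

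Cd209b encodes SIGN-R1, a receptor best known from marginal zone macrophages of the spleen. Its level in Lyve1+ macrophages was 66.0, 28.4, 159 and 68.9 CPM (80.6 ± 55.5), and no library of another kind was above 5.20 CPM. The atherosclerotic Nrf2flox/flox library was the highest and the normocholesterolemic Nrf2Cdh5tKO library the lowest. Lyve1+ macrophages were above dendritic cells, which held 4 UMIs, by a log2 fold of 4.51 ± 0.59 (edgeR, adjusted p = 8.65e-06). None of 145 monocytes held a UMI.

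Cd209d was also found in dendritic cells. It stood at 88.6, 33.1, 249 and 111 CPM in Lyve1+ macrophages (120 ± 91.9) and at 42.9, 0, 120 and 33.8 CPM in dendritic cells (49.1 ± 50.6). The ranges overlapped across libraries, but Lyve1+ macrophages were higher within each library. The log2 fold was 1.18 ± 0.34 (edgeR, adjusted p = 0.0071), and without the library block, that is without the pairing of kinds from the same mice, it was 1.12 (adjusted p = 0.128). A stricter gate for the kinds kept fewer dendritic cells, and a smaller share of them had Cd209a. With that gate the log2 fold was 3.42 (edgeR, adjusted p = 0.000313). Dendritic cells in turn were above cavity-like macrophages by a log2 fold of 2.41 (edgeR, adjusted p = 0.000468).

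Cd209a, which is used as a marker of some dendritic cells, varied widely between libraries. In dendritic cells it was at 1072, 0, 365 and 405 CPM (461 ± 446), and no UMI was counted in the 11 dendritic cells of the normocholesterolemic Nrf2Cdh5tKO library. In intima-type macrophages it was at 85.1, 0, 307 and 37.8 CPM, all from 8 of 179 cells. The log2 fold of dendritic cells over intima-type macrophages was 2.44 ± 0.66 (edgeR, adjusted p = 0.0104), higher in 3 of 4 libraries. This call was lost without the library block (adjusted p = 0.0714), without the normocholesterolemic Nrf2flox/flox library (log2 fold 1.67, adjusted p = 0.177) and without the atherosclerotic Nrf2Cdh5tKO library (2.09, adjusted p = 0.0790).

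The dendritic cells of the normocholesterolemic Nrf2Cdh5tKO library differed from the others in makeup. Xcr1 or Clec9a, markers of type 1 dendritic cells, had a UMI in 26 of 55, 10 of 11, 5 of 11 and 8 of 17 cells. Over those 49 cells Cd209a was at 152 CPM. It was at 981 CPM in the 20 cells that had only Ccr7, a marker of migratory dendritic cells, and at 1940 CPM in the 25 cells with neither, 22 of which had a UMI. Within these parts Cd209a also differed between libraries. It was at 232, 0, 143 and 186 CPM in the cells with Xcr1 or Clec9a. In the cells with only Ccr7 it was at 1447, 0, 33.4 and 0 CPM, in 12, 1, 3 and 4 cells. In the cells with neither it was at 2493, 1176 and 1015 CPM in the 3 libraries that held such cells, all but the normocholesterolemic Nrf2Cdh5tKO library. The part of this makeup in the difference between libraries was not tested. Only 1005 of the 2769 Cd209a UMIs in phagocytes lay in the dendritic cell gate, and 1086 lay in phagocytes that passed no gate, at 737, 598, 421 and 269 CPM. Among those ungated phagocytes, the 31 cells whose highest marker score was that of dendritic cells had 1212 CPM, and 26 of them had a UMI. In the 65 with the intima-type score highest it was 604 CPM, and 25 had a UMI.

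Clec10a was highest in Lyve1+ macrophages, at 259, 362, 463 and 338 CPM (355 ± 84.2). Dendritic cells were at 310, 3.90, 89.8 and 166 CPM (142 ± 130), above Lyve1+ macrophages in the normocholesterolemic Nrf2flox/flox library and below them in the other 3. The log2 fold of 0.98 ± 0.52 did not pass the test (edgeR, adjusted p = 0.136), but without that library it was 1.91 (adjusted p = 0.0194). Against cavity-like macrophages Clec10a was higher by 2.38 ± 0.55 (edgeR, adjusted p = 0.00173). Within the dendritic gate Clec10a was at 27.0 CPM in the 49 cells with Xcr1 or Clec9a and 235 CPM in the 20 with only Ccr7. In the 25 with neither it was at 684 CPM. By library these were at 910, 307 and 334 CPM, with no such cells in normocholesterolemic Nrf2Cdh5tKO. The 31 ungated phagocytes with the dendritic score highest had 372 CPM of Clec10a, and 21 of them had a UMI. They were not part of the test.

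Mgl2 was spread more widely over the macrophages. Its level was 1135, 840, 957 and 698 CPM in Lyve1+ macrophages (907 ± 185) and 272, 388, 505 and 354 CPM in cavity-like macrophages (380 ± 96.6). Lyve1+ macrophages were above cavity-like macrophages in 4 of 4 libraries without overlap, yet the log2 fold of 1.07 ± 0.56 did not pass (edgeR, adjusted p = 0.140). Mgl2 was higher in Lyve1+ macrophages than in dendritic cells (log2 fold 1.64, adjusted p = 0.0284) and than in intima-type macrophages (2.00, adjusted p = 0.0151) by the same test. Dendritic cells ran from 3.90 CPM in the normocholesterolemic Nrf2Cdh5tKO library to 654 CPM in the normocholesterolemic Nrf2flox/flox library. Within their gate Mgl2 was at 78.9 CPM in the 49 cells with Xcr1 or Clec9a and 986 CPM in the 20 with only Ccr7. Of the 235 Mgl2 UMIs in those 20 cells, 228 came from 12 cells of the normocholesterolemic Nrf2flox/flox library. In the 25 with neither it was at 1016 CPM. By library these were at 1030, 51.1 and 1418 CPM, with no such cells in normocholesterolemic Nrf2Cdh5tKO. The 31 ungated phagocytes with the dendritic score highest had 1000 CPM of Mgl2, and 20 of them had a UMI. The 65 with the intima-type score highest had 872 CPM. These ungated cells were not part of the test.

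Clec4b1 was highest in cavity-like macrophages, with an even level of 420, 372, 338 and 426 CPM (389 ± 41.9). Dendritic cells were at 217, 42.9, 41.9 and 118 CPM, below cavity-like macrophages in every library. The log2 fold was 1.77 ± 0.37 over dendritic cells (edgeR, adjusted p = 0.00151) and 3.06 ± 0.37 over Lyve1+ macrophages (adjusted p = 1.67e-06). Within the dendritic gate Clec4b1 was at 54.1 CPM in the 49 cells with Xcr1 or Clec9a and 193 CPM in the 20 with only Ccr7. In the 25 with neither it was at 382 CPM. By library these were at 462, 128 and 311 CPM, with no such cells in normocholesterolemic Nrf2Cdh5tKO. The 31 ungated phagocytes with the dendritic score highest had 328 CPM of Clec4b1, and 18 of them had a UMI. They were not part of the test. Of the 226 cavity-like macrophages, 82.7% had a UMI, against 1.62% of 2229 smooth muscle cells, which should lack the gene and show the background of free RNA at a median of 15355 UMIs per cell (18085 in cavity-like macrophages).

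Clec4e was highest in monocytes, at 685, 509, 515 and 798 CPM (627 ± 140). Intima-type macrophages were at 69.8, 8.57, 668 and 173 CPM (230 ± 300), so that monocytes were above them in 3 of 4 libraries and below them in the atherosclerotic Nrf2flox/flox library. The log2 fold was 1.89 ± 0.60 (edgeR, adjusted p = 0.0314). It lost the call without the library block (1.45, adjusted p = 0.135) and without any 1 of 3 libraries: 1.49 without normocholesterolemic Nrf2flox/flox (adjusted p = 0.233), 1.54 without normocholesterolemic Nrf2Cdh5tKO (0.0837) and 1.82 without atherosclerotic Nrf2Cdh5tKO (0.111). Over Lyve1+ macrophages, at 1.30 to 21.4 CPM, the log2 fold was 6.08 (edgeR, adjusted p = 8.66e-07).

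Clec4d, next to Clec4e in the genome, was at 159, 68.2, 96.8 and 207 CPM in monocytes (133 ± 62.4) and 90.6, 0, 197 and 80.0 CPM in intima-type macrophages (91.8 ± 80.8). These did not differ beyond their spread (log2 fold 0.67 ± 0.53, edgeR, adjusted p = 0.438). Monocytes were above Lyve1+ macrophages by 2.81 ± 0.53 (edgeR, adjusted p = 0.000268). Dendritic cells held Clec4d in 1 library only, at 2.60 CPM.

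Neutrophils were above every kind of phagocyte for both genes, at 1464, 1080, 887 and 505 CPM of Clec4d and 1898, 1512, 1440 and 1882 CPM of Clec4e, and 90.1% and 94.2% of them had a UMI. S100a8, a gene of neutrophils and also of monocytes, was at 19138, 17794, 14474 and 185 CPM in the monocytes, and its source was not tested. Ly6g, Cxcr2 and Retnlg, genes of neutrophils, had 0 UMIs in the 19 monocytes of the normocholesterolemic Nrf2Cdh5tKO library. All S100a8 UMIs of those monocytes lay in 2 cells. Clec4e stood at 798 CPM in the library with 185 CPM of S100a8. With 7, 0, 2 and 2 monocytes left out that held a UMI of Ly6g, Cxcr2 or Retnlg, a step added after seeing the data, monocytes had 728, 509, 562 and 823 CPM of Clec4e and 176, 68.2, 81.8 and 201 CPM of Clec4d. S100a8 was then at 3492, 17794, 157 and 211 CPM.

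**Figure D2:**
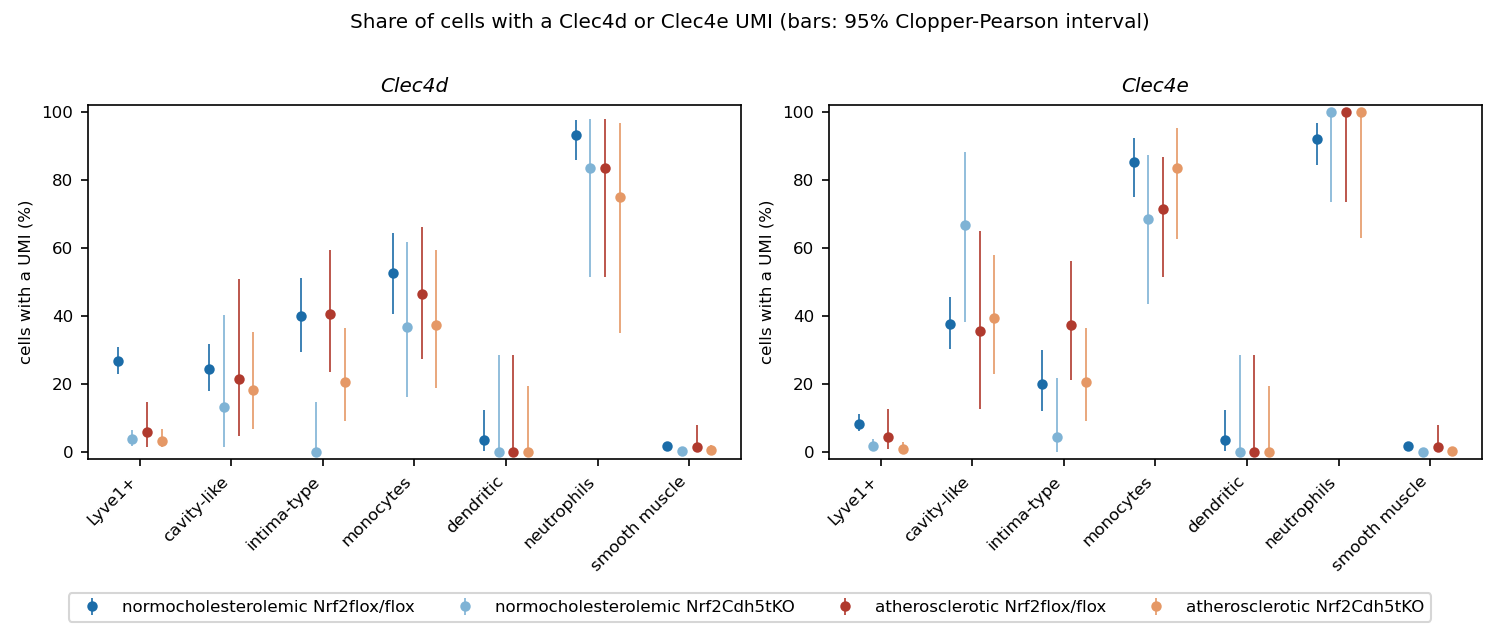
Percent of cells with at least 1 UMI of Clec4d and of Clec4e by kind of cell, with 1 point per library and exact 95% Clopper-Pearson intervals as bars. Over all libraries Clec4e was found in 80.0% of monocytes and 94.2% of neutrophils and Clec4d in 46.9% and 90.1%, against 1.21% and 1.39% of smooth muscle cells.

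Counted over the members, Lyve1+ macrophages were above cavity-like macrophages for 5 of 10 (Cd209b, Cd209d, Cd209f, Cd209g and Clec10a) and below them for Clec4b1 and Clec4e. Of all genes tested in this contrast 18.4% were higher and 19.4% lower. Against dendritic cells 6 members were higher (Cd209b, Cd209d, Cd209f, Cd209g, Clec4d and Mgl2) and 2 lower (Cd209a and Clec4b1), with 23.1% and 21.1% of all genes. Against intima-type macrophages the counts were 6 and 2, with 11.4% and 13.7% of all genes, and against monocytes 7 and 2, with 20% and 20.9%. The 2 lower members in both of these contrasts were Clec4d and Clec4e. The call of Clec4d against dendritic cells set 267 UMIs, 242 of them from the normocholesterolemic Nrf2flox/flox library, against 2.

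In the contrasts without Lyve1+ macrophages, the Clec4 genes and Cd209a made most of the calls. Cavity-like macrophages were above dendritic cells for Clec4b1, Clec4d and Clec4e and below them for Cd209a and Cd209d, with 13.1% and 10.5% of all genes. They were above intima-type macrophages for Clec4b1 and below them for 0 members (9.21% and 11% of all genes), and above monocytes for Clec4b1 and Mgl2 and below them for Clec4e (11.2% and 10.5%). Intima-type macrophages were above dendritic cells for Clec4d and Clec4e and below them for Cd209a, Cd209d and Clec10a (13.2% and 10.2%). They were above monocytes for Cd209a, Clec4b1 and Mgl2 and below them for Clec4e (9.95% and 8.1%). Monocytes were above dendritic cells for Clec4d and Clec4e and below them for Cd209a, Cd209d, Clec4b1, Clec10a and Mgl2 (12.4% and 10.7%).

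The high level of the Cd209 genes in Lyve1+ macrophages came from a minority of the cells. Cd209f had a UMI in 29.1% of 1089 cells (95% Clopper-Pearson interval 26.4% to 31.9%), where an even level at the same depths would give 85.0%. Cd209g had a UMI in 23.0% (64.4% if even), Cd209d in 14.9% (47.4%) and Cd209b in 12.8% (37.8%). Clec10a (63.4% against 81.9%) and Mgl2 (86.9% against 95.6%) were closer to even. In smooth muscle cells, at a median of 15355 UMIs against 8195 in Lyve1+ macrophages, the shares were 3.36% for Cd209f, 1.88% for Cd209g, 1.08% for Cd209d and 0.673% for Cd209b. The tenth of Lyve1+ cells with most UMIs of a gene held 81.0% of its UMIs for Cd209f and 94.7% for Cd209b, and a single cell held 152 UMIs of Cd209f.

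**Figure D3:**
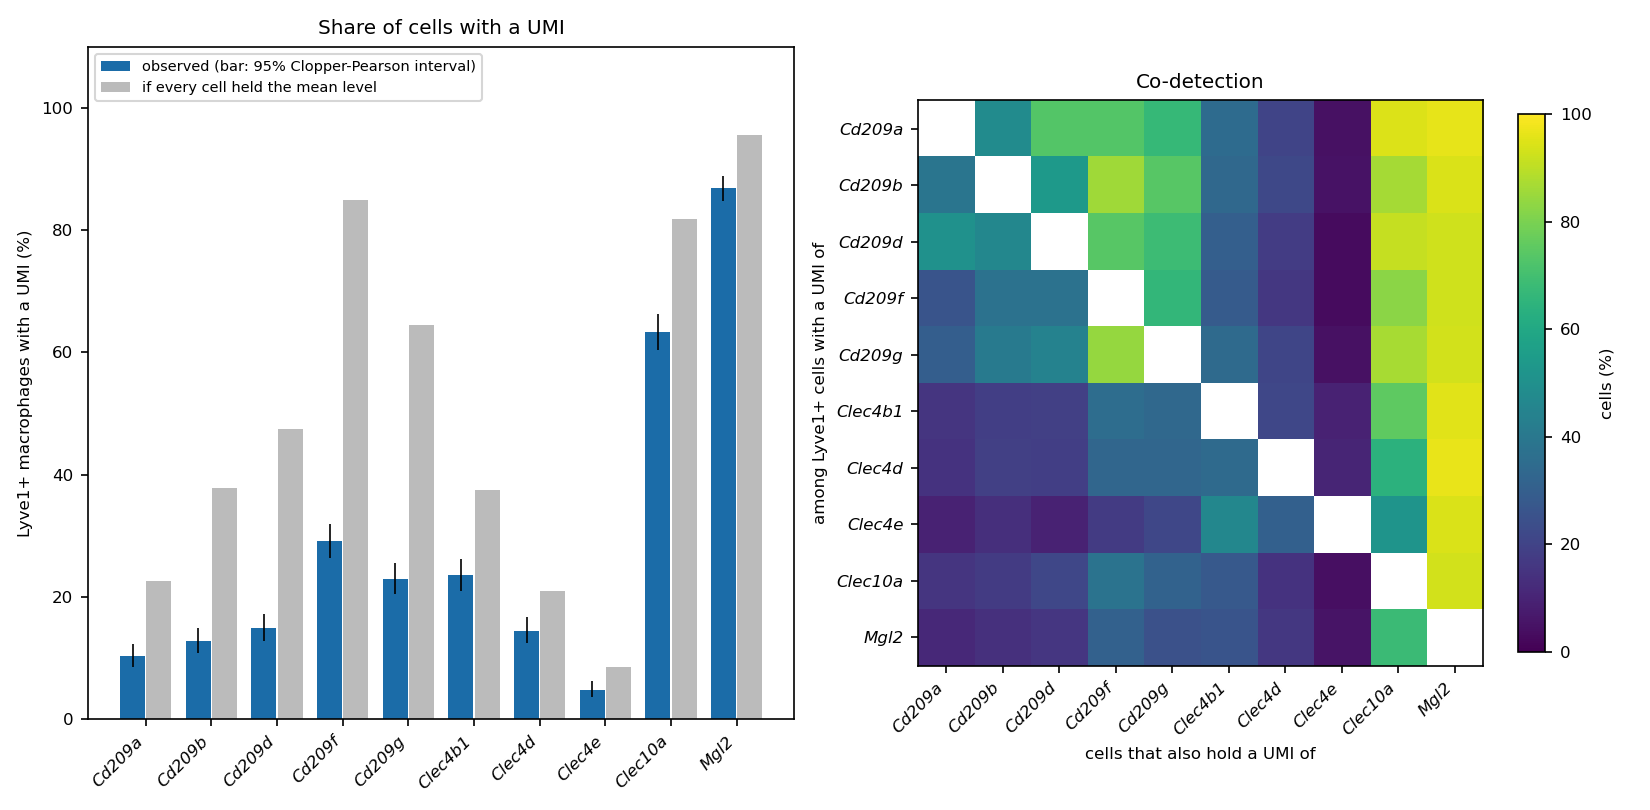
Left, percent of Lyve1+ macrophages with at least 1 UMI of each receptor (exact 95% Clopper-Pearson intervals) beside the percent expected if every cell held the mean level, such as 29.1% against 85.0% for Cd209f. Right, among Lyve1+ cells with a UMI of the gene in the row, the percent (colour) that also held the gene in the column, such as 84.0% with Cd209f among cells with Cd209g.

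Cd209 genes were found in the same Lyve1+ cells. Of 317 cells with a Cd209f UMI, 66.2% also had one of Cd209g, against 5.18% of the cells without Cd209f. This held in each library, at 79.3%, 55.7%, 57.6% and 53.6% with Cd209f and at most 12.1% without. Median depth was 8842 UMIs with Cd209f and 8000.5 without. These are the genes whose starts share the run of 180 bases, part of which is shown above. The part of this run in the co-detection was not tested. Cd209b was found in 46.3% of cells with Cd209d and in 6.90% of those without, and Cd209d in 73.2% of cells with Cd209a and in 8.19% of those without. In monocytes 94.1% of Clec4d-positive cells had Clec4e, against 67.5% of the Clec4d-negative ones. In dendritic cells Clec10a was found in 97.1% of the 35 cells with Cd209a and in 5.08% of the others, and Mgl2 in 77.1% and 6.78%. These are descriptions over cells, which share their library, and were given no test.

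At least 1 of Cd209b, Cd209d, Cd209f and Cd209g was found in 409 of the 1089 Lyve1+ cells (37.6%), and in 36.2%, 30.8%, 62.1% and 42.0% of the cells by library. The cells split this way, after the data had been seen, differed in other genes. Retnla, which encodes the secreted protein RELMα, was at 5030, 2278, 2410 and 2609 CPM in the cells with these UMIs and at 805, 212, 135 and 976 CPM in those without. With 0, 1, 2, 3 and 4 of the genes found, Retnla was at 653, 1937, 2810, 3621 and 8644 CPM, in 680, 163, 99, 81 and 66 cells with median depths of 8104, 6866, 9728, 8591 and 10881.5 UMIs. Smooth muscle cells had 37.8 CPM of Retnla. Lyz1, the other leading gene of cavity-like macrophages, was at 84.4 CPM with and 74.2 CPM without the Cd209 UMIs.

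Of the 8 markers of Lyve1+ macrophages, 4 were higher in the Cd209-positive cells in 4 of 4 libraries. Timd4, a receptor of resident macrophages, was at 169 against 108 CPM over all libraries, Folr2 at 1118 against 802, Lyve1 at 1090 against 857 and F13a1 at 1748 against 1481. Pf4 was higher in 1 library of 4. Cx3cr1, the fractalkine receptor, was lower in 4 of 4 libraries (37.2 against 108 CPM), as were Trem2, a lipid receptor (113 against 170), and the proliferation gene Mki67 (41.4 against 81.6). Of the other 4 genes of dividing cells, Top2a was lower in 3 of 4 libraries and Birc5, Ccnb2 and Pclaf in 2 of 4. In the atherosclerotic Nrf2Cdh5tKO library these 4 were higher in the Cd209-positive cells, such as Top2a at 61.9 against 49.4 CPM. The cells were gated on the 8 markers, with a score above those of the other kinds, and Retnla is a marker of the cavity-like kind. General macrophage markers, Cx3cr1 and Trem2 among them, also served to tell phagocytes from other cells. The cells were then split on the Cd209 genes, so these values carry no test.

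**Figure D4:**
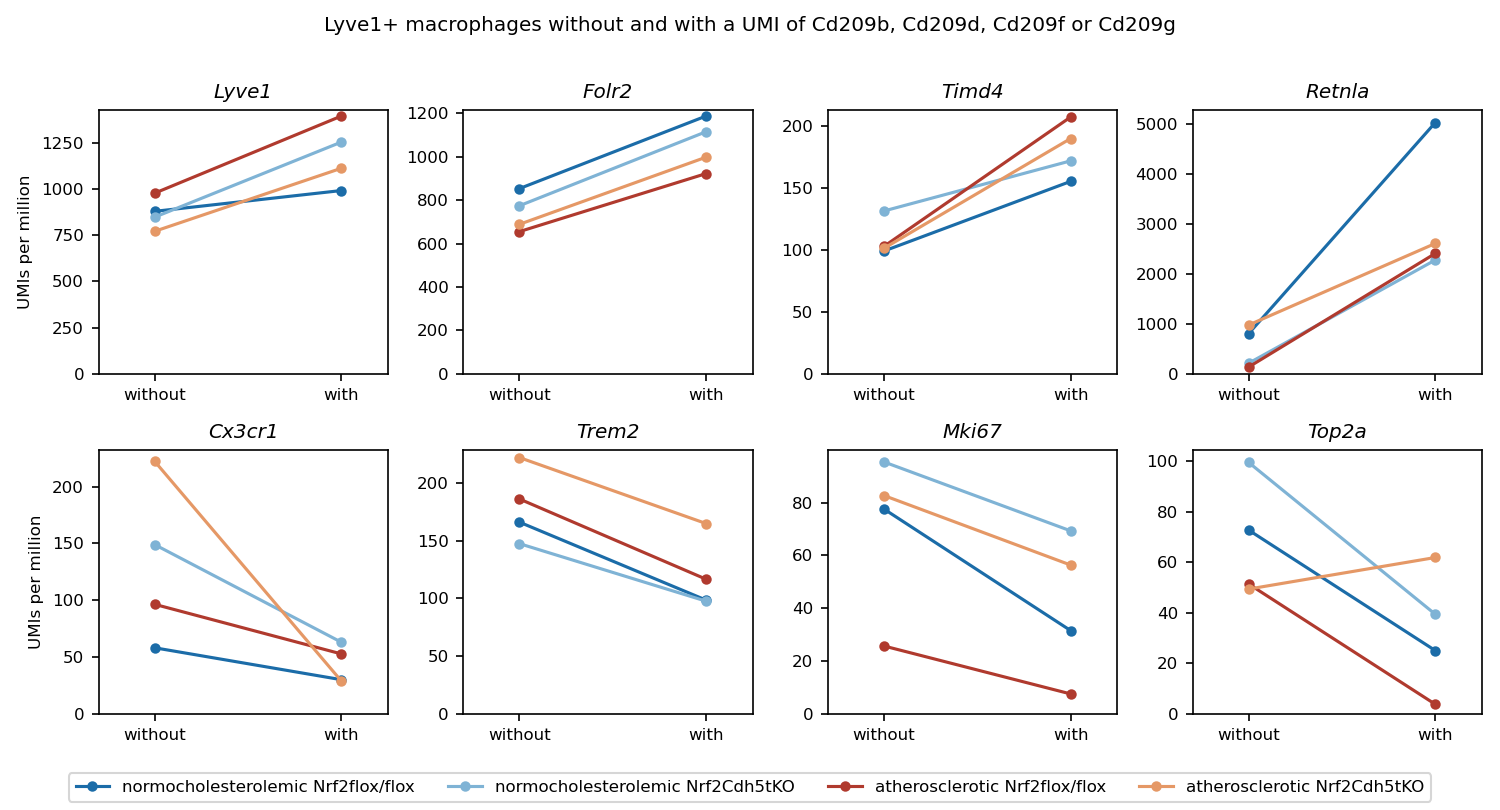
Level in UMIs per 1000000 of Retnla and 7 marker genes in Lyve1+ macrophages without and with a UMI of Cd209b, Cd209d, Cd209f or Cd209g, with 1 line per library. Retnla is higher with these UMIs in all 4 libraries (2278 to 5030 against 135 to 976), and Cx3cr1, Trem2 and Mki67 are lower in all 4.

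Between conditions, each ratio compares 1 library with 1 other. The intervals are exact 95% binomial ones, which cover counting error only and are too narrow here because few cells carry most UMIs. In Lyve1+ macrophages Cd209d had a log2 ratio of atherosclerotic to normocholesterolemic of 1.49 (1.17 to 1.80) under Nrf2flox/flox and 1.74 (1.33 to 2.16) under the Nrf2Cdh5tKO label. Cd209b was at 1.27 (0.87 to 1.65) and 1.28 (0.81 to 1.76), and Cd209a at 1.12 (0.54 to 1.66) and 1.57 (0.85 to 2.34). Cd209f was at 0.34 (0.13 to 0.55) and 0.44 (0.26 to 0.61), under 2-fold in both. Cd209g was at -0.11 (-0.47 to 0.24) and 0.36 (0.07 to 0.66). Cd209b rests on few cells: as a mean over cells of each cell's own level, its ratios were 1.75 and 0.60.

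Shares of positive cells were higher in the atherosclerotic library of both genotype labels for Cd209d. Cd209d was found in 15.6%, 9.25%, 37.9% and 13.9% of Lyve1+ cells, and thinned to 1000 UMIs per cell in 6.07%, 2.25%, 13.8% and 4.37%. The thinning left out 6, 25, 1 and 25 shallower cells. Cd209b thinned was found in 4.05%, 2.62%, 16.9% and 3.88%. The atherosclerotic Nrf2flox/flox library, with 66 Lyve1+ cells, was the highest in both.

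By genotype label, all 5 Cd209 genes were lower in Lyve1+ macrophages of the library labelled Nrf2Cdh5tKO at both diets. Nfe2l2, the targeted gene, was not lower in these cells under that label. Whether its reads cover the excised exon was not examined. The log2 ratios to Nrf2flox/flox were -1.67 and -1.21 for Cd209a, -1.22 and -1.21 for Cd209b, -1.42 and -1.17 for Cd209d, -0.61 and -0.51 for Cd209f and -0.94 and -0.47 for Cd209g, normocholesterolemic first. Mgl2 was at -0.44 and -0.45. Of all genes with at least 20 UMIs in Lyve1+ macrophages, 65.1% had a positive log2 ratio in the normocholesterolemic pair. In the atherosclerotic pair 40.2% did, so a lower value was the more common direction there. These pairs share libraries with the comparisons by diet, the Cd209 genes share cells, and 1 library decides each arm. The paper, which tested single cells of its own Lyve1+ cluster, lists Cd209f and Cd209g as upregulated in normocholesterolemic Nrf2Cdh5tKO mice. That is the opposite direction, and the reason was not tested. In atherosclerotic Nrf2Cdh5tKO mice the paper lists Cd209b and Cd209d as downregulated.

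Of the members with at least 20 UMIs in a pair, 3 of 10 were past 2-fold higher and 2 lower with diet in Nrf2flox/flox, where 15% and 8.05% of all genes were. Under the Nrf2Cdh5tKO label it was 3 of 9 higher and 0 lower (3.14% and 3.92% of all genes). By genotype label 0 of 10 were higher and 5 lower in normocholesterolemic libraries (7.38% and 4.03%), and 1 of 8 higher and 3 lower in atherosclerotic ones (5.42% and 6.3%). The median log2 ratios of the members were 0.38, 0.36, -1.08 and -0.49 in these 4 comparisons, against 0.28, -0.10, 0.21 and -0.16 over all genes.

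**Figure D5:**
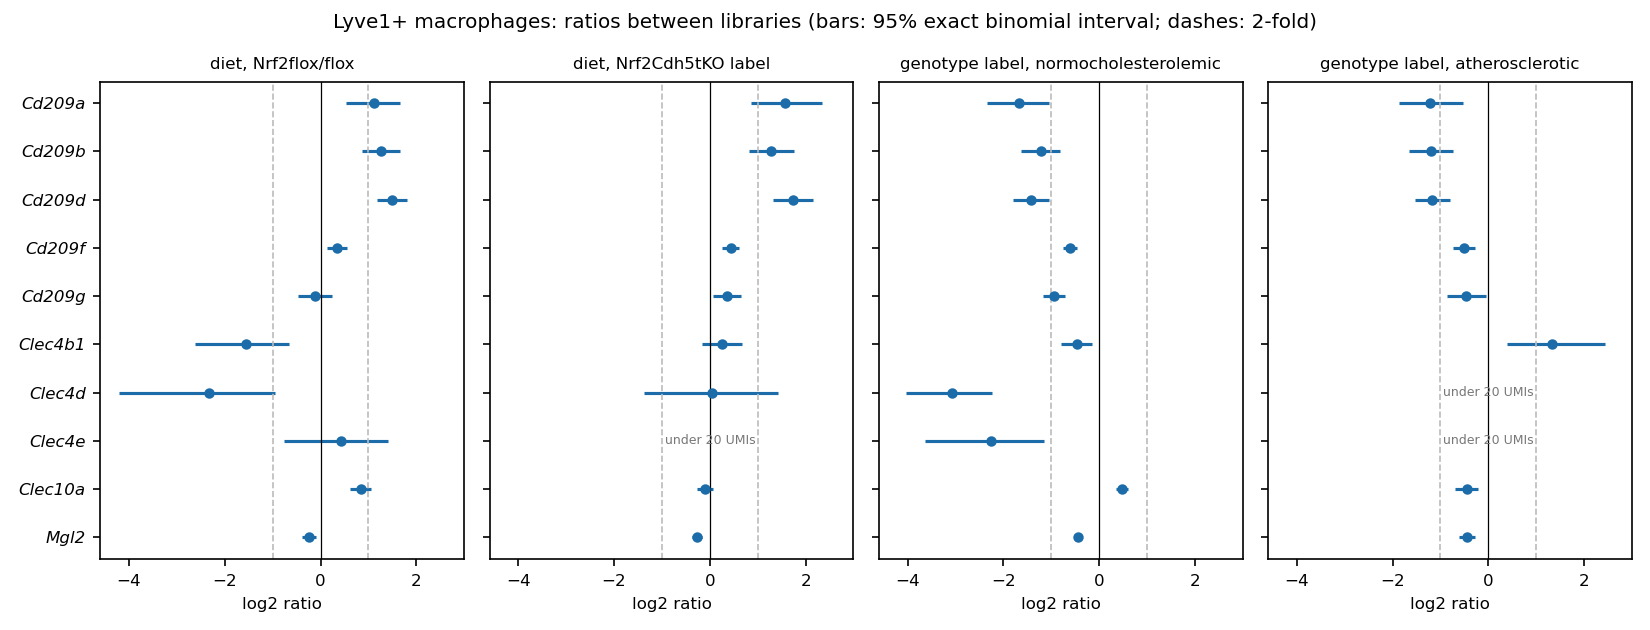
Log2 ratio of each receptor in Lyve1+ macrophages by diet and by genotype label, with exact 95% binomial intervals that cover counting error only. Cd209a, Cd209b and Cd209d lie above 1 with diet under both genotype labels and below -1 by genotype label at both diets, while Cd209f and Mgl2 lie between -1 and 1.

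Outside Lyve1+ macrophages, the widest difference by diet with the same sign under both genotype labels was that of Clec4e in intima-type macrophages. Its log2 ratio was 3.26 (2.85 to 3.68) in Nrf2flox/flox, from 64 UMIs in 85 cells and 224 in 32 cells. Under the Nrf2Cdh5tKO label it was 4.34 (2.44 to 7.41), from 2 UMIs in 23 cells and 78 in 39 cells. Clec4d in the same cells was at 1.12 (0.63 to 1.60) in Nrf2flox/flox, and under the Nrf2Cdh5tKO label it went from 0 to 36 UMIs, a log2 ratio of at least 2.64 against a floor of 3 UMIs per library. Clec4b1 in cavity-like macrophages was under 2-fold by diet, at -0.31 (-0.62 to -0.02) and 0.20 (-0.15 to 0.56). None of these ratios has a replicate. A single intima-type cell held 84 Clec4e UMIs, and the tenth of these cells with most held 88.04%. The makeup of this gate also differed between libraries. Its summed level of 9 general macrophage markers was 14445.5, 16137, 5888 and 14587 CPM. That of 7 classical monocyte markers was 999 CPM in the atherosclerotic Nrf2flox/flox library and at most 531 CPM in the others. The part of this makeup in the Clec4e and Clec4d ratios was not tested.

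The genes most like each member were sought by the Pearson correlation of log2(CPM + 1) over 20 sums of kind and library, which share depth and libraries. Clec4e was among the 3 genes most like Clec4d (r = 0.90), beside Thbs1 and Sod2. For Clec4e these were F10 (0.93), Prkcd (0.91) and Clec4d. For Cd209g they were Enpep (0.94), Plekhg5 (0.94) and Tnfrsf25 (0.93), and for Cd209b Tnfrsf25 (0.93), Lbx1 (0.93) and Asgr2 (0.92). Cd209f was most like the gate marker Folr2 (0.91), Clec10a like the scavenger receptor Cd163 (0.81), Mgl2 like Slc39a10 (0.92), Clec4b1 like Ybx1 (0.84), Cd209a like Ext1 (0.84) and Cd209d like Rtn4rl1 (0.82). Genes needed at least 50 UMIs over the 20 sums, and some of those named had few. Rtn4rl1 had 61 UMIs, Tnfrsf25 66, Asgr2 88, Enpep 110 and Lbx1 121, against 469 for Plekhg5 and 8600 for Folr2.

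Of 26 other C-type lectin receptors, Clec7a was not analysed here and 10 of the other 25 passed the filter on low counts. Against cavity-like macrophages, 7 of the 10 were higher in Lyve1+ macrophages and 2 lower, with 18.4% and 19.4% of all genes tested. Mrc1, the mannose receptor, was higher by a log2 fold of 2.19 (edgeR, adjusted p = 0.00227), with mean levels of 2273 CPM in Lyve1+ and 465 CPM in cavity-like macrophages. Also higher by the same test were Colec12, a scavenger receptor (log2 fold 3.30), and Clec4n, which encodes Dectin-2 (2.32). Clec5a, a receptor that signals through DAP12, had 437 UMIs in Lyve1+ and 1 in cavity-like macrophages. Olr1, the oxidized LDL receptor LOX-1, had 0 UMIs in Lyve1+ macrophages and 55 in cavity-like macrophages.

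Of 18 genes of lectin receptor signalling, 16 were tested. In Lyve1+ against cavity-like macrophages 3 were higher and 6 lower, with 18.4% and 19.4% of all genes. Malt1, a partner of Card9, was lower (log2 fold -4.69), as were the cytokine Il1b (-3.42), Lsp1, which binds the DC-SIGN tail (-3.05), and Plcg2 (-1.96), and the cytokine Il10 was higher (2.71). Against monocytes 1 was higher and 9 lower (20% and 20.9% of all genes), again led by Il1b (-4.42) and Malt1 (-3.83). Mean levels of Malt1 were 9.90 CPM in Lyve1+ macrophages and 129 CPM in monocytes, and those of Il1b were 149 and 2719 CPM.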

How the data were processed

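Single cells were sorted as DAPI-negative, and 10x Chromium 3′ libraries were made by the authors. The deposited values are raw counts of UMIs per gene and cell barcode, which the authors made with Cell Ranger 6.1.2 on mm10, per the submitters' processing notes. Values are whole numbers and not normalized. Cells were filtered as in the study (200 to 6000 genes, at most 15% mitochondrial counts), where the upper limit on genes was the study's step against doublets. No further doublets were removed, and Scrublet marked 306 of the 14148 cells left (2.16%).

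A cell's score for a kind was the mean of its 4 highest scaled markers, and a gate needed a score of at least 0.4 and 0.1 above the next kind. Of the phagocytes, 139 of the 216 without a gate were near a limit. UMIs were summed per kind and library, with at least 5 cells per sum. Sums were fitted with edgeR 4.0.16 (TMM, filterByExpr, quasi-likelihood test) in R 4.3.3, with library and kind as terms, and called at an adjusted p under 0.05. This step was tested on simulated data. DESeq2 1.42.0, scanpy 1.11.5, numpy 2.4.6, scipy 1.17.1, pandas 2.3.3 and matplotlib 3.10.9 were also used. Kinds were paired by library because they came from the same mice. Between conditions there was 1 library each, hence no test, and a ratio was called past 2-fold. Genes were named by a rule: all members, up to 5 genes per contrast of each fixed list, and the 3 genes most like a member. Members and lists were chosen with earlier results of these data known. Alternatives were other cell filters, doublet removal, a stricter gate (0.6 and 0.15), other normalization, no gene filter, DESeq2, no library block and each library left out. A limit of at least 10 cells per sum was also set, which every sum already met.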

Additional observations from a re-analysis of the deposited data

Results flagged for a closer look

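Of 34 groups of 4 library values checked, 2 held a library whose gap to the others passed Dixon's 95% limit, where chance gives about 1 in 20. Clec4d in Lyve1+ macrophages was at 47.6 CPM in the normocholesterolemic Nrf2flox/flox library, and Clec10a in monocytes at 37.5 CPM in the atherosclerotic Nrf2flox/flox library. Clec4d had a UMI in 26.8% of the 500 Lyve1+ cells of the former library and in 3.77%, 6.06% and 3.46% in the others, while the summed level of the 7 neutrophil markers in Lyve1+ cells was 255, 202, 311 and 103 CPM in the normocholesterolemic Nrf2flox/flox, normocholesterolemic Nrf2Cdh5tKO, atherosclerotic Nrf2flox/flox and atherosclerotic Nrf2Cdh5tKO libraries, and its part was not tested.

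Some log2 ratios had opposite signs in paired comparisons. With 1 library per condition these differences were not tested. By diet, under Nrf2flox/flox and the Nrf2Cdh5tKO label, Clec4d in monocytes was at -0.72 and 1.60, Clec4e in monocytes at -0.41 and 0.65, and Clec4e in cavity-like macrophages at 0.65 and -1.26. In dendritic cells Clec4b1 was at -2.37 and 1.46, Clec10a at -1.78 and 5.41 and Mgl2 at -3.77 and 6.77, where the normocholesterolemic Nrf2Cdh5tKO library held 1 UMI each of Clec10a and Mgl2 in 11 cells.

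By genotype label, normocholesterolemic then atherosclerotic, Clec4b1 in Lyve1+ macrophages was at -0.47 and 1.33 and Clec10a there at 0.48 and -0.46. Clec4d in monocytes was at -1.22 and 1.10, Clec4e in monocytes at -0.43 and 0.63, Clec4e in cavity-like macrophages at 1.17 and -0.74 and Mgl2 in cavity-like macrophages at 0.51 and -0.51. In dendritic cells Clec4b1 was at -2.34 and 1.50, Clec10a at -6.31 and 0.88 and Mgl2 at -7.39 and 3.15.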

How the results depend on the processing

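Among the member contrasts, alternatives were compared only for each member's highest kind against its next highest kind. Of 148 such values, 132 kept their direction and their side of the threshold, 12 lost the call, 4 gained it and none changed sign. The 132 include the values of a limit of at least 10 cells per sum. Every sum already met that limit, so those values repeat the main fit and say nothing on stability. Under DESeq2, Cd209a in dendritic cells against intima-type macrophages was at a log2 fold of 2.53 (adjusted p = 0.110) and Clec4e in monocytes against intima-type macrophages at 2.02 (0.108). Without the library block, which pairs kinds from the same mice, these were 2.30 (0.0714) and 1.45 (0.135), and Cd209d in Lyve1+ macrophages against dendritic cells was 1.12 (0.128). With the stricter gate they were 1.57 for Cd209a (0.111), 1.80 for Clec4e (0.0905) and 3.42 for Cd209d (0.000313), and Clec10a in Lyve1+ macrophages against dendritic cells passed at 1.56 (0.0101). Without the filter on low counts, Clec10a (0.97, adjusted p = 0.000469) and Mgl2 against cavity-like macrophages (1.04, adjusted p = 2.03e-05) passed. With each library left out, the ranges were 1.67 to 3.44 for Cd209a, 1.49 to 2.91 for Clec4e, 0.51 to 1.91 for Clec10a, 1.01 to 1.35 for Cd209d and 0.87 to 1.26 for Mgl2. Cd209b passed the filter in only 2 of these fits. The cause of these changes was not tested. Of the ratios, 215 of 220 moved by less than their interval, and of the shares 13 of 50 moved. The stricter gate left Cd209a in 9.09% of dendritic cells. Thinning to 1000 UMIs lowered Cd209f in Lyve1+ macrophages to 15.6% and Clec4e in monocytes to 43.4%. Depth and the 11 dendritic cells of 2 libraries limit what could be detected.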
